A study of Arabidopsis thaliana with 12 samples.

Results

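The genes described here were at least 2-fold lower in Arabidopsis seedlings after induction of the transcription factor BRC1 than in a brc1 mutant, and lay beside a place where BRC1 was found on chromatin. There were 68 such genes among 22028 with RNA signal. A gene was taken when its mean in brc1-2 was at least 5 FPKM and its mean log2(FPKM + 1) was lower by 1 or more in the induced line. FPKM counts sequenced fragments relative to the length of the transcript and the size of the library. In addition, its highest induced value had to lie below its lowest brc1-2 value, and the midpoint of a BRC1 peak had to lie inside its annotated locus or within 1000 bp on either side. The RNA values and the peak positions therefore chose the genes, and both are given below as a description without a test.

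BRC1 (BRANCHED1) is a TCP-family transcription factor, made mainly in axillary buds, where it holds back the outgrowth of shoot branches. A factor of this kind can be bound near genes whose transcripts go up and near genes whose transcripts go down. Several of the genes below belong to processes that whole seedlings carry out mostly in roots or in growing cell walls: iron and sulfate uptake, proton pumping, wall loosening and root hair growth.

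The induced line carries a GFP-BRC1 fusion under estradiol control, and its RNA was sequenced in 3 libraries. The control was brc1-2, a loss-of-function line without the fusion, also in 3 libraries. Both were whole seedlings aged 10 days, given 10 µM estradiol and collected after 5 hours. Binding was measured by ChIP-seq with an antibody to GFP in the induced line, and the peak list holds places found in both anti-GFP libraries 1 and 2. The fusion and the brc1 genotype thus both set the groups apart, an induced line without estradiol was not analysed here, and peaks were called in the induced line alone. The labels name no separate cultures, so the spread between libraries may be technical. BRC1 itself (AT3G18550) had 3370, 3421 and 3625 FPKM in the induced line, against 1.34, 1.66 and 2.2 in brc1-2. The log2 change of BRC1 was 10.32, with SE 0.12 and a limma adjusted p of 1.79e-06. With 3 against 3, an exact permutation test (two-sided) cannot go below its value here, p = 0.1. Fragment numbers derived from the confidence bounds in the tables summed to between 33176994 and 53385759 per library.

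Each step of the choice left fewer genes. A mean of at least 5 FPKM in brc1-2 was reached by 16485 genes, 755 of these were lower by 1 or more on the log2 scale, and in 554 the groups did not overlap. A peak lay beside 68 of the 554. Of the rest, 477 had a position and no peak within 1000 bp, and 9 had no position on chromosomes 1 to 5. Among all 21663 genes with a position 2.52% met the RNA part of the rule, and among the 3469 of these with a peak 1.96% did. The mirrored rule, with the induced line at least 2-fold higher, was met by 221 genes with a peak, or 6.37%. Peaks lay beside 16.0% of all genes with a position, and beside 68 of the 545 genes with a position that met the RNA part. The 68 genes are a small share both of the genes near peaks and of the genes that were lower.

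The 68 genes were spread over all 5 chromosomes, with 18, 14, 10, 10 and 16 on chromosomes 1 to 5. Their log2 changes in FPKM + 1 ranged from -3.71 to -1.0 with a median of -1.27, against a median of 0.04 over all 21038 genes tested. Genes that were lower without a peak had a median of -1.36 and reached -8.91. The median gene had a mean of 7.29 FPKM in the induced line and 21.6 FPKM in brc1-2. By limma, 60 of the 68 passed an adjusted p of 0.05 as lower, 7 did not pass it and 1 had too few values to be tested. The same call was made for 8.86% of all tested genes as lower and for 7.37% as higher, and the rule had already used this contrast.

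The limit of 2-fold cut through a continuous range of values. Just inside it stood AT2G16750 (-1.003), AT3G19390 (-1.015), LRL3 (-1.029), AT2G44370 (-1.041), AT1G51790 (-1.069) and AT5G44575 (-1.069). Just outside stood the ferric reductase homologue FRO6 (-0.995), SKIP20 (-0.99), the cytokinin glucosyltransferase UGT76C2 (-0.979), the sugar transporter SWEET17 (-0.976), AT5G02580 (-0.975) and the ion channel CNGC3 (-0.972). Their group means were alike in size, with 2.48 FPKM in the induced line and 6.19 FPKM in brc1-2 for FRO6, and 2.87 FPKM and 6.94 FPKM in the same groups for LRL3.

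Transport and nutrition accounted for 10 of the genes, with a median log2 change of -1.28. FRO2 (AT1G01580), the ferric chelate reductase of the root surface, had 19.0, 16.2 and 15.3 FPKM in the induced line, against 64.3, 94.4 and 119 FPKM in brc1-2. All 3 induced libraries were close together, while brc1-2 library 3 was far above brc1-2 library 1. The log2 change of -2.35 corresponds to a brc1-2 mean 5.49 times the induced mean, and a peak at 210704 to 211044 on chromosome 1 lay inside the locus itself (209395 to 213041). AHA2 (AT4G30190), the plasma membrane proton pump that acidifies the soil around the root, is among the most abundant of the 68. AHA2 had 228, 193 and 269 FPKM in the induced line, against 509, 511 and 618 FPKM in brc1-2 (log2 change -1.25). Both groups were tight relative to the gap between them, and its peak lay 844 bp from the locus.

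SULTR1;2 (AT1G78000), the main high-affinity sulfate importer of roots, had 21.3, 15.7 and 27.6 FPKM in the induced line, against 101, 55.9 and 59.7 FPKM in brc1-2 (log2 change -1.68). Here brc1-2 library 1 stood above the other two. GSR2 (AT1G66200), also named GLN1;2, is a cytosolic glutamine synthetase that fixes ammonium, and its transcript is the most abundant of the 68. GSR2 had 337, 354 and 457 FPKM in the induced line, against 895, 797 and 1021 FPKM in brc1-2 (log2 change -1.25). STP3 (AT5G61520), a monosaccharide transporter, had 5.55, 7.13 and 8.13 FPKM in the induced line, against 20.9, 24.0 and 31.2 FPKM in brc1-2 (log2 change -1.73). The gap between the groups was wider than the spread within either.

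The group holds a pair of water channel genes. PIP1A (AT3G61430), or PIP1;1, had 81.1, 75 and 94.3 FPKM in the induced line, against 246, 148 and 193 FPKM in brc1-2 (log2 change -1.19). NLM1 (AT4G19030), or NIP1;1, had 7.99, 6.73 and 7.48 FPKM in the induced line, against 39.0, 21.1 and 17.9 FPKM in brc1-2 (log2 change -1.61). The induced values of NLM1 lay close together, and brc1-2 library 1 was again the highest. The remaining 3 of the group were the vacuolar anion exchanger CLC-B (log2 change -1.3), the phosphate- and nitrate-responsive regulator HRS1 (-1.26) and the ABC transporter ABCG34 (-1.08).

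**Figure D1:**
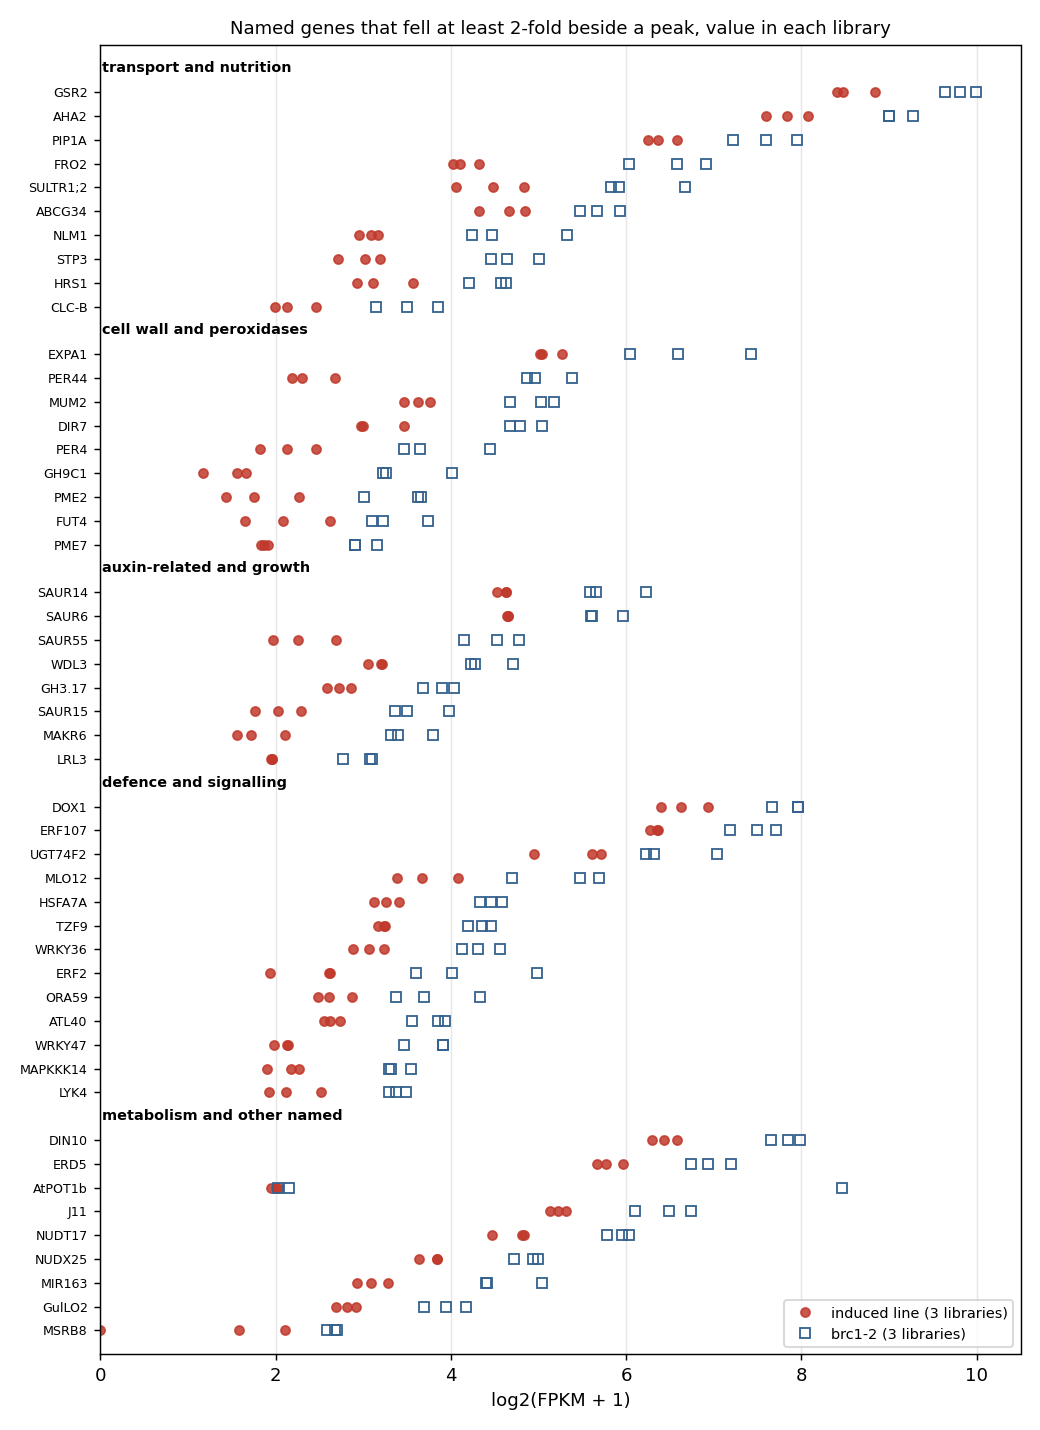
Level of each named gene in every library, as log2(FPKM + 1) on the x axis, with genes grouped by role down the page; filled circles are the 3 libraries of the induced line and open squares the 3 libraries of brc1-2. By the rule, circles lie left of squares in every row, and AtPOT1b stands out because a single brc1-2 library lies far from the other 5 values.

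Some other genes of iron uptake fell, most of them without a peak. Of 24 tested genes of a list on iron uptake and iron deficiency, leaving out FRO2 and AHA2, limma called 11 lower, none higher and made no call on 13, with a median log2 change of -1.22 against 0.04 over all tested genes. The count lay between 9 and 15 when any 1 library was left out. FIT (AT2G28160, FRU in the gene table), the factor that switches on FRO2 and IRT1 under iron shortage, averaged 1.49 ± 0.348 FPKM in the induced line and 22.2 ± 1.79 FPKM in brc1-2 (SD, n = 3 each). Its log2 change was -3.23 (SE 0.13, limma adjusted p = 0.000247). F6'H1, which makes iron-mobilising coumarins, averaged 14.1 ± 2.41 FPKM in the induced line and 140 ± 21.3 FPKM in brc1-2 (limma adjusted p = 0.000353). NAS1, a nicotianamine synthase, had a log2 change of -2.03 (limma adjusted p = 0.000981) and MTPA2, a vacuolar metal transporter, one of -1.77 (limma adjusted p = 0.0013). These 4 kept their calls in each fit that left out 1 library. Among the 3312 tested genes with a peak outside the 68, limma called 20.8% higher and 6.88% lower. Only 5 of the 24 had a peak, and of these NRAMP1, a manganese and iron importer, was called lower (log2 change -0.67, limma adjusted p = 0.00997). The iron importer IRT1 had no peak and a log2 change of -2.54 (limma adjusted p = 0.00249).

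Among 27 other aquaporin genes tested, 8 were called lower, 3 higher and 16 not called, with a median log2 change of -0.32. Leaving out induced library 1 or 2 gave 1 lower, leaving out induced library 3 gave 2 and leaving out brc1-2 library 3 gave 4. Members of this family went both ways: PIP1B averaged 885 ± 46.7 FPKM in the induced line and 426 ± 84.5 FPKM in brc1-2 (log2 change 1.07, limma adjusted p = 0.00768), and PIP2E 329 ± 18.2 FPKM and 213 ± 0.545 FPKM in the same groups (0.62, limma adjusted p = 0.00413). GAMMA-TIP was lower (-0.6, limma adjusted p = 0.00467) and SIP1;2 higher (1.09, limma adjusted p = 0.00192). These 4 calls held without any 1 library. PIP1B, PIP2E and GAMMA-TIP have a peak.

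Cell wall genes and secreted peroxidases made up 9 of the 68 and had the largest median fall of any named role, with a log2 change of -1.61. PER44 (AT4G26010), a class III peroxidase, had 3.93, 3.57 and 5.42 FPKM in the induced line, against 40.8, 30 and 28.3 FPKM in brc1-2. This log2 change of -2.68 is the largest of the 68 that fragment numbers also show, with 142, 121 and 286 derived fragments in the induced line, against 2289, 993 and 1203 in brc1-2. GH9C1 (AT1G48930), an endoglucanase that acts on cellulose, had 2.16, 1.25 and 1.95 FPKM in the induced line, against 15.1, 8.58 and 8.38 FPKM in brc1-2 (log2 change -2.04). The peroxidase PER4 (AT1G14540) had 3.37, 2.53 and 4.52 FPKM in the induced line, against 11.5, 20.8 and 10.0 FPKM in brc1-2 (log2 change -1.71). Its highest library was brc1-2 library 2, unlike GH9C1, whose highest was brc1-2 library 1.

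EXPA1 (AT1G69530), an expansin that loosens the wall during cell growth, had 31.3, 31.9 and 37.4 FPKM in the induced line, against 171, 95.6 and 65.1 FPKM in brc1-2. The induced libraries were nearly level, whereas brc1-2 library 1 held more than brc1-2 libraries 2 and 3 together, so the size of its change (log2 -1.58) depends much on which brc1-2 library is read. The others were the pectin methylesterases PME2 (-1.61) and PME7 (-1.12), the dirigent protein gene DIR7 (-1.69), the galactosidase MUM2 (-1.34), known from seed coat mucilage, and the fucosyltransferase FUT4 (-1.23).

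Families of these wall genes were lower in part. Of 59 other class III peroxidase genes tested, 25 were called lower, 4 higher and 30 not called, with a median log2 change of -0.45. The lower count was 16 without induced library 2 and between 17 and 19 without any other library. The higher count was 2 without any 1 induced library or brc1-2 library 2. PER39 averaged 17.7 ± 1.54 FPKM in the induced line and 80.2 ± 3.63 FPKM in brc1-2 (SD, n = 3 each; log2 change -2.12, SE 0.08, limma adjusted p = 0.000236), and PER64 4.33 ± 0.761 FPKM and 21.1 ± 4.3 FPKM in the same groups (limma adjusted p = 0.00191). The near-identical neighbours AT1G05240 and AT1G05250, both PER1 in the gene table, had log2 changes of -2.2 and -2.12, which are uncertain because reads could be split between them. Just 11 of the 59 had a peak, of which 1 was called lower and 2 higher. Of 22 other expansin genes, 6 were called lower, 1 higher and 15 not called (median -0.21), and the lower count was 3 without brc1-2 library 2. EXPA18 and EXPA7 (-2.45 and -2.35, limma adjusted p = 0.00343 and 0.00433) were lower and EXLA2 higher (1.5, limma adjusted p = 0.00316), and none of these has a peak. EXPA17 had no assembled piece in any of the 3 induced libraries, which the fit takes as 0, and averaged 6.7 FPKM in brc1-2 (limma adjusted p = 0.0013). It was too low to test without any 1 brc1-2 library.

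Several root hair genes without a peak fell. LRL3 (AT5G58010), a bHLH factor of root hair growth, is the gene of the root hair list among the 68, with 2.85, 2.89 and 2.88 FPKM in the induced line, against 7.59, 5.83 and 7.41 FPKM in brc1-2 (log2 change -1.03). Of 31 others tested, 16 were called lower, none higher and 15 not called, with a median of -1.33. That median was -0.7 with a pseudocount of 5 and -2.43 by voom on derived fragments. Leaving out induced library 1 or brc1-2 library 2 gave 8 lower, leaving out induced library 2 gave 9 and leaving out brc1-2 library 1 gave 10. Besides EXPA18 and EXPA7, the actin-depolymerising factor ADF8 (-1.84, limma adjusted p = 0.00362) and RHS13 (-2.14, limma adjusted p = 0.00406) headed the list, and all 4 kept their calls without any 1 library. Of the 31, 1 had a peak, the hair patterning gene CPC, which was not called. PER44 had been entered in this list under another name, PRX44, and was left out because the gene table does not give that name for its locus. It is counted with the peroxidases, and it too has a peak, 271 bp away and inside the locus AT4G26005.

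Markers of organs moved with these groups in part. Of 16 root markers, which include EXPA7, 5 were called lower, 0 higher and 11 not called. Their summed level was 89.9, 87.8 and 94.7 FPKM in the induced line, against 201, 157 and 155 FPKM in brc1-2, and none was at 0. Among those called lower was EXPA7 of root hairs, described above. The stem cell and patterning markers WOX5 (-0.23), PLT1 (0.68) and SHR (0.44) were not called, with limma adjusted p-values of 0.626, 0.428 and 0.0748. Root hair genes other than LRL3 summed to 103, 96.2 and 123 FPKM in the induced line, against 461, 302 and 258 FPKM in brc1-2. Shoot and leaf markers summed to 18610, 21029 and 20954 FPKM in the induced line, against 17991, 20012 and 25016 FPKM in brc1-2. The largest part was RBCS1A, with 11352, 13379 and 13136 FPKM in the induced line, against 8202, 11049 and 13923 in brc1-2. Among the 13 shoot and leaf markers 1, LHCB2.1, was called lower (-1.03, limma adjusted p = 0.00611) and CLV3 had no assembled piece. CAB2 (-0.48), LHCA1 (-0.38), PSAD-1 (-0.35) and FMA (-0.23) were lower without a call, with groups that did not overlap. Such separation, with the induced line lower, held for 18.1% of all tested genes. RBCS1A (0.22), MYB0 (0.12) and LAS (0.03) were higher and not called. The part of root cell content in the lower values of the transport, wall and root hair genes was not tested. In whole seedlings, fewer cells of a type and less RNA per cell cannot be told apart.

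**Figure D2:**
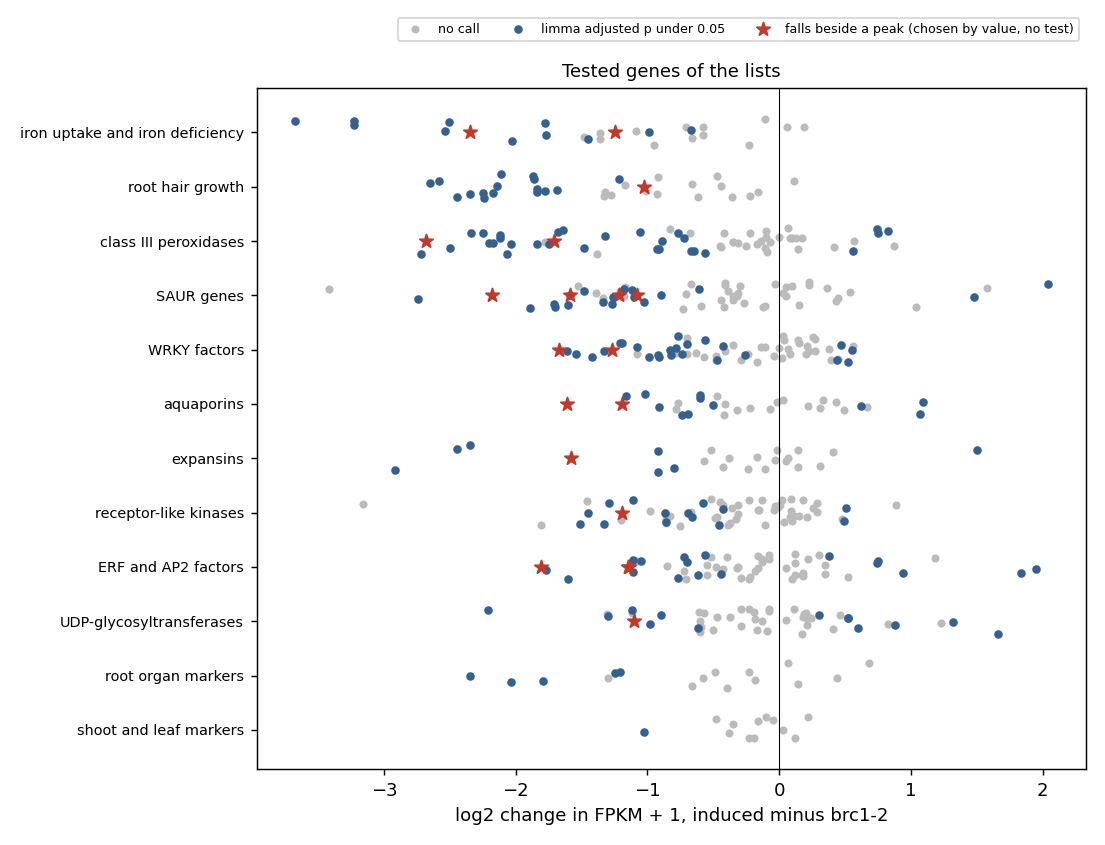
Log2 change in FPKM + 1 (x axis, induced line minus brc1-2) of every tested gene in the lists that share a gene with the 68, and in 2 lists of organ markers; stars are genes of the 68, blue points other genes with a limma adjusted p under 0.05, grey points genes not called. Iron and root hair genes lie mostly to the left of 0, with 11 of 24 and 16 of 31 called lower, while aquaporin, ERF and UDP-glycosyltransferase genes lie on both sides.

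Auxin-related and growth genes numbered 8, with a median log2 change of -1.23. Of these, 4 belong to the SAUR family, small auxin-induced proteins that promote cell expansion. SAUR55 (AT5G50760) had 2.91, 3.78 and 5.47 FPKM in the induced line, against 22.1, 16.8 and 26.5 FPKM in brc1-2 (log2 change -2.18). SAUR15 (AT4G38850) had 2.41, 3.88 and 3.09 FPKM in the induced line, against 14.8, 9.32 and 10.3 FPKM in brc1-2 (-1.59). Its neighbour SAUR14 (AT4G38840) had 22.1, 23.8 and 23.7 FPKM in the induced line, against 73.8, 49.6 and 46.9 FPKM in brc1-2 (-1.22). SAUR15 and SAUR14 lie 611 bp apart on chromosome 4 and share a peak at 18125585 to 18126076, so they are not independent cases of binding. In both, brc1-2 library 1 was the highest.

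SAUR6 (AT2G21210) had the steadiest induced values, 24.0, 24.2 and 24.1 FPKM, against 48.0, 47.3 and 61.6 FPKM in brc1-2 (-1.08). MAKR6 (AT5G52900), of a family of membrane-associated kinase regulators, had 1.94, 3.3 and 2.28 FPKM in the induced line, against 12.9, 9.52 and 8.99 FPKM in brc1-2 (-1.71). It has 1 peak inside its locus and 1 beyond it, 712 bp away and inside the locus AT5G52901. GH3.17, which conjugates auxin to glutamate, had a log2 change of -1.15, and WDL3 (AT3G23090), a microtubule-binding protein of growing hypocotyls, one of -1.25.

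Of 56 other SAUR genes tested, 16 were called lower, 2 higher and 38 not called, with a median of -0.43. Leaving out induced library 1 gave 9 lower, and leaving out induced library 2 or brc1-2 library 3 gave 10. SAUR66 averaged 3.69 ± 0.535 FPKM in the induced line and 13.1 ± 1.24 FPKM in brc1-2 (log2 change -1.59, limma adjusted p = 0.00122), while AT1G75580 averaged 22.8 ± 0.962 FPKM and 4.95 ± 1.72 FPKM in the same groups (2.04, limma adjusted p = 0.00345). AT3G60690 (-1.1, limma adjusted p = 0.00379) and SAUR63 (-1.7, limma adjusted p = 0.0054) were lower. Neighbouring SAUR genes can be close copies, between which reads may have been split. Of the 56, 6 had a peak, of which 1 was called lower and 1 higher.

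Defence and signalling was the largest named role, with 13 genes and a median of -1.2. ERF2 (AT5G47220) and ORA59 (AT1G06160) are ethylene response factors, and ORA59 joins ethylene and jasmonate signals in defence. ERF2 had 2.83, 5.15 and 5.1 FPKM in the induced line, against 11.1, 15.2 and 30.7 FPKM in brc1-2 (log2 change -1.81). ORA59 had 4.6, 6.31 and 5.08 FPKM in the induced line, against 9.33, 11.9 and 19.2 FPKM in brc1-2 (-1.15). In both, brc1-2 library 3 was well above brc1-2 libraries 1 and 2. ERF107 (AT5G61590), also named DEWAX for its repression of wax synthesis, had 76.0, 81.1 and 80.5 FPKM in the induced line, against 209, 145 and 179 FPKM in brc1-2 (-1.14). Its induced values were nearly equal, and it has a peak on each side of its locus.

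WRKY factors regulate defence and nutrient responses. WRKY47 (AT4G01720) had 3.39, 2.94 and 3.41 FPKM in the induced line, against 10.0, 14 and 14 FPKM in brc1-2 (-1.67). WRKY36 (AT1G69810) had 7.38, 6.36 and 8.45 FPKM in the induced line, against 22.5, 16.4 and 18.9 FPKM in brc1-2 (-1.27), but its peak lay 950 bp away, inside the neighbouring locus CBSCBS2. LYK4 (AT2G23770), a receptor-like kinase of chitin perception, had 2.81, 3.35 and 4.73 FPKM in the induced line, against 8.81, 9.33 and 10.2 FPKM in brc1-2 (-1.19). In all 3 genes the gap between the groups exceeded the spread in either.

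DOX1 (AT3G01420), an alpha-dioxygenase that makes oxylipins, had 97.5, 83.3 and 121 FPKM in the induced line, against 248, 202 and 249 FPKM in brc1-2 (-1.21). UGT74F2 (AT2G43820), which glucosylates salicylic acid, had 29.9, 47.9 and 51.5 FPKM in the induced line, against 79.0, 73.9 and 130 FPKM in brc1-2 (-1.1). It had wider spread in both groups and was 1 of the 7 without a limma call. The UGT74F2 peak lay 812 bp away and nearer to LSM6B, at 119 bp. The others were MLO12 (-1.58), related to powdery mildew susceptibility, the heat shock factor HSFA7A (-1.2), the zinc finger protein gene TZF9 (-1.12), the kinase MAPKKK14 (-1.27) and the RING protein gene ATL40 (-1.15), which has a peak inside its locus.

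The families of these regulators were mixed. Of 58 other WRKY genes tested, 20 were called lower, 4 higher and 34 not called (median -0.32). The lower count was 13 without induced library 2 and 12 without brc1-2 library 2. The higher count was 1 when induced library 3 was left out, and 2 when library 1 or 2 of either group was. WRKY65 (-1.21, limma adjusted p = 0.00249), WRKY29 (-1.54, limma adjusted p = 0.00276), WRKY49 (-1.08, limma adjusted p = 0.00463) and WRKY60 (-1.19, limma adjusted p = 0.00502) led it without a peak, and each held without any 1 library. Of 14 with a peak, 3 were called lower and 2 higher. Of 53 other ERF genes, 11 were called lower, 6 higher and 36 not called (median -0.18), and the lower count was 6 without induced library 1 and 7 without induced library 2 or 3. The higher count was 3 without induced library 2. ERF8 averaged 29.8 ± 2.55 FPKM in the induced line and 7.67 ± 1.29 FPKM in brc1-2 (1.84, limma adjusted p = 0.000973) and ERF38 14.5 ± 2.44 FPKM and 3.0 ± 0.651 FPKM in the same groups (1.95, limma adjusted p = 0.00171). ERF106 (-0.77, limma adjusted p = 0.00199) and ERF060 (-1.11, limma adjusted p = 0.00232) were lower. Of the 19 ERF genes with a peak, 4 were called lower and 5 higher, beside 6.88% lower and 20.8% higher among other tested genes with a peak.

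Of 61 other genes matched as receptor-like kinases, 12 were called lower, 2 higher and 47 not called (median -0.33), and the lower count was 6 without induced library 2 or brc1-2 library 2. The higher count was 1 without induced library 1 or 2 or brc1-2 library 2. CRK22 (-1.45, limma adjusted p = 0.00126), CRK21 (-1.33, limma adjusted p = 0.00255), CRK30 (-1.51, limma adjusted p = 0.00364) and CRK2 (-1.11, limma adjusted p = 0.00475), cysteine-rich receptor-like kinases, led it and have no peak. UDP-glycosyltransferase genes were about even, with 6 lower, 7 higher and 33 not called among 46 (median -0.11). The higher count was 4 without induced library 1, induced library 2 or brc1-2 library 2. Of the 14 with a peak, 6 were called higher and 1 lower. UGT74F1, a close relative of UGT74F2 that also has a peak, averaged 10.8 ± 0.808 FPKM in the induced line and 3.73 ± 0.122 FPKM in brc1-2 (1.32, limma adjusted p = 0.000905). The pair therefore had opposite signs, although the difference between the 2 genes was not tested. UGT89B1 was higher (1.66, limma adjusted p = 0.000353), and UGT72E1 (-2.21, limma adjusted p = 0.00141) and UGT88A1 (-1.12, limma adjusted p = 0.0017) were lower.

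Metabolic and other named genes numbered 9, with a median of -1.22. DIN10 (AT5G20250), of the raffinose synthase family and known as a transcript of dark and sugar shortage, had 85.3, 77.3 and 94.4 FPKM in the induced line, against 229, 201 and 253 FPKM in brc1-2 (-1.4). ERD5 (AT3G30775), the proline dehydrogenase that starts proline breakdown, had 53.6, 61.4 and 50 FPKM in the induced line, against 146, 121 and 106 FPKM in brc1-2 (-1.15). In both genes the groups were clearly apart. NUDT17 (AT2G01670), a Nudix hydrolase with 2 peaks, had 21.1, 27.1 and 27.5 FPKM in the induced line, against 60.9, 54.0 and 64.7 FPKM in brc1-2 (-1.22). The farther NUDT17 peak, 989 bp away, lay inside the locus AT2G01667. MIR163 (AT1G66725), the locus of a microRNA precursor, had 8.75, 6.62 and 7.49 FPKM in the induced line, against 31.9, 20.1 and 20.3 FPKM in brc1-2 (-1.52). The value covers the precursor transcript and not the mature microRNA. The chloroplast chaperone J11 (-1.22), the Nudix hydrolase NUDX25 (-1.12) and GulLO2 (-1.13), of the gulonolactone oxidase family, were similar in size. MSRB8, a methionine sulfoxide reductase, had no assembled piece in induced library 1 and had 1.99 and 3.32 FPKM in induced libraries 2 and 3, against 4.99, 5.38 and 5.52 FPKM in brc1-2.

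The other 19 genes have no descriptive name in the tables used, and their median was -1.38. AT5G62280 had 4.64, 4.76 and 9.5 FPKM in the induced line, against 32.1, 27.7 and 22.3 FPKM in brc1-2 (-2.01). AT5G42830 was even within both groups, with 1.82, 1.86 and 2.38 FPKM in the induced line, against 10.4, 11 and 10.7 FPKM in brc1-2 (-1.96). AT3G46280 was the most abundant of them, with 51.5, 44.8 and 72.6 FPKM in the induced line, against 103, 148 and 134 FPKM in brc1-2 (-1.19). By contrast, the groups nearly met in AT5G19970, with 4.62, 1.36 and 1.85 FPKM in the induced line, against 7.18, 4.67 and 6.68 FPKM in brc1-2 (-1.08). The values of AT4G36700 were 6.22, 6.98 and 8.35 FPKM against 21.6, 9.19 and 31.1 FPKM in the same groups (-1.26). Neither gene was called by limma. AT1G15125 had a wide spread in both groups. It had 11.4, 27.4 and 24.0 FPKM in the induced line, against 36.7, 61.9 and 130 FPKM in brc1-2 (-1.71), and was not called by limma. Peaks lay inside the loci of AT1G15125, AT2G16750, AT2G37440, AT5G44575 and AT5G58900, the last with 18.3, 15.9 and 17.5 FPKM in the induced line, against 46.3, 41.9 and 43.3 FPKM in brc1-2 (-1.3).

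For a few of the 68, FPKM and fragment numbers went different ways. In derived fragments scaled to the library total, 64 of the 68 were lower by 1 or more on the log2 scale, with a median of -1.39, where 6.75% of all tested genes were. AT3G48790 has the largest fall in FPKM of the 68 (-3.71), with 1.76, 2.39 and 2.15 FPKM in the induced line, against 32.3, 51.4 and 36.6 FPKM in brc1-2. It had 22, 14 and 40 derived fragments in the induced line, against 23, 14 and 18 in brc1-2, a log2 change of 0.38 in scaled fragments. Its assembled pieces were 547, 372 and 549 bases long in the induced line, against 158, 138 and 151 bases in brc1-2, which gives few fragments a high FPKM. It is the one gene of the 68 under 50 fragments in every library.

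AtPOT1b (AT5G06310), of the telomere-protecting POT1 family, had 3.07, 3.02 and 2.87 FPKM in the induced line, against 353, 3.09 and 3.43 FPKM in brc1-2. The value of 353 came from brc1-2 library 1, where a separate piece of 80 bases held 21 fragments at 350 FPKM, and the change in scaled fragments was -0.11. AT4G16680 had 2.0, 4.4 and 4.28 FPKM in the induced line, against 14.3, 12.9 and 6.74 FPKM in brc1-2 (-1.42), yet its log2 value in scaled fragments was higher by 0.52, with up to 4 pieces in a library. SAUR6 is the fourth of those short of 2-fold, at -0.87. AT5G08250 had no assembled piece in any of the 3 induced libraries, where the value was filled in as 0, and had 2.49, 0.979 and 13.8 FPKM in brc1-2, from 56, 32 and 86 fragments. AT2G37440 had no assembled piece in induced library 1 and 1.62 and 0.622 FPKM in induced libraries 2 and 3, against 1.84, 18.3 and 1.81 FPKM in brc1-2, so that brc1-2 library 2 sets its mean. In all, 63 of the 68 had at least 100 fragments in every brc1-2 library and 41 had 1000 or more in some library. Besides AT3G48790, AT5G08250 and AT2G37440, those short of 100 were SAUR15, with 23, 35 and 47 fragments in the induced line, against 194, 79 and 114 in brc1-2, and MSRB8, with 0, 27 and 76 in the induced line, against 118, 40 and 96 in brc1-2.

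**Figure D3:**
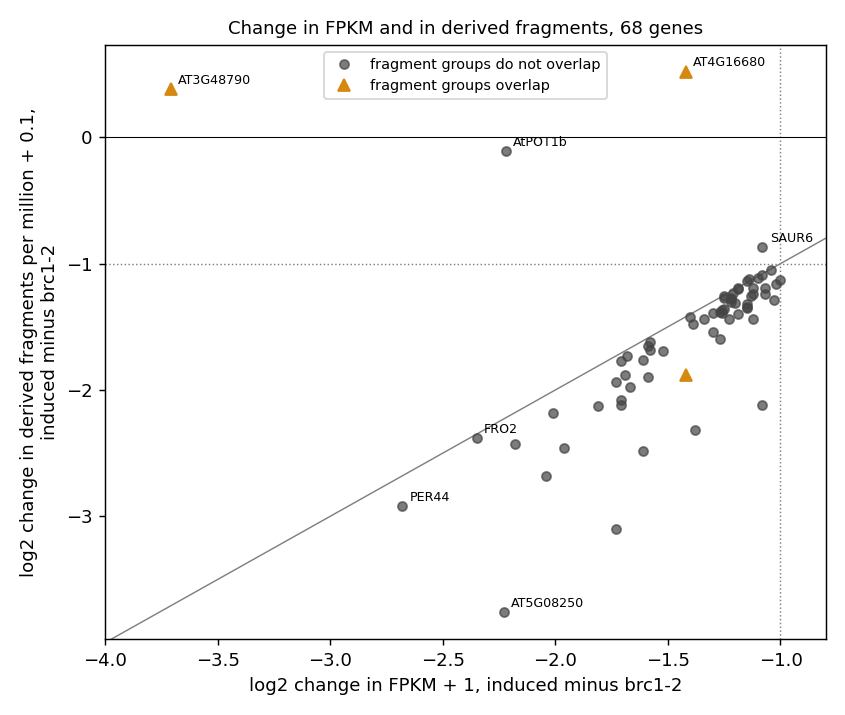
Log2 change of each of the 68 genes in FPKM + 1 (x axis) and in derived fragments scaled to the library total, + 0.1 (y axis), both induced line minus brc1-2; the diagonal marks equal changes, dotted lines mark 2-fold, and triangles are genes whose groups overlap in scaled fragments. Most genes lie near or below the diagonal, while AT3G48790, AT4G16680 and AtPOT1b lie near or above 0 on the y axis.

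The brc1-2 libraries did not carry the 68 genes evenly. In 31 genes brc1-2 library 3 was the highest, in 27 library 1 and in 10 library 2, or 45.6%, 39.7% and 14.7%. Genes that were lower without a peak had shares of 41.3%, 46.3% and 12.4% for the same libraries. Cell wall genes peaked in brc1-2 library 1 in 6 of 9 and auxin-related genes in 5 of 8, whereas defence genes did so in brc1-2 library 3 in 8 of 13 and transport genes in 6 of 10. The log2 values of the 3 brc1-2 libraries had the larger SD in 45 of the 68. The share over all tested genes was not computed. Adding 1 to FPKM also narrows the log2 spread more in the group that the rule made lower. When 1 library was left out and the rule applied again, 50 of the 68 were kept in all 6 cases, and leaving out brc1-2 library 3 lost the most, 10.

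The peaks beside these genes were placed farther out than those beside genes that were higher. Of the 68, 8 had a peak midpoint inside the locus (11.8%), 32 had the nearest one outside but within 500 bp (47.1%) and 28 beyond 500 bp (41.2%). The median distance of the nearest peak was 345 bp. For the 221 genes at least 2-fold higher beside a peak, the same shares were 20.8%, 64.7% and 14.5%, with a median of 128 bp. All 3312 other tested genes with a peak had 14.9%, 58.0% and 27.1%, with a median of 239 bp. In the outermost band, 751 to 1000 bp, lay 26.5% of the 68 and 5.88% of the 221. The peak list is a single one with no replicate, so these differences carry no test, and without strand the 2 sides of a gene cannot be named upstream and downstream.

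Peaks were also narrower and more often single. The 71 peaks beside the 68 genes were 352 bp wide at the median, with quartiles of 299 and 458 bp, against 453 bp beside the 221 higher genes and 395 bp beside the other tested genes with a peak. More than 1 peak lay beside NUDT17, MAKR6, SAUR15, AT1G51790 and ERF107, which is 7.35% of the 68, against 24.9% of the 221 and 11.2% of the others. The annotated locus nearest to the nearest peak was the gene's own in 53 of the 68 (77.9%) and in 201 of the 221 (91.0%). Widest were the peaks of PIP1A (22731904 to 22732896 on chromosome 3) and DIN10 (6832375 to 6833365 on chromosome 5), at 993 and 991 bp, and narrowest that of PER4 (4975904 to 4975979 on chromosome 1), at 76 bp. The PIP1A peak lay nearer to TFB1-3, 446 bp away, than to PIP1A, 908 bp away.

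**Figure D4:**
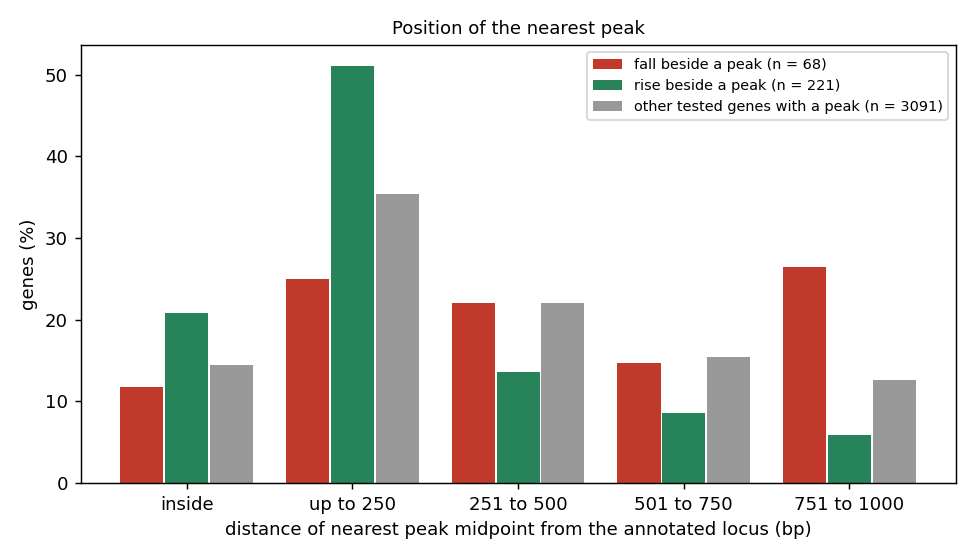
Share of genes in percent (y axis) by distance of the nearest peak midpoint from the annotated locus in bp (x axis), for the 68 genes that are lower beside a peak, the 221 that are higher beside a peak and 3091 other tested genes with a peak. The 68 hold 26.5% in the outermost band and 25% within 250 bp, against 5.88% and 51.1% of the 221.

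Many of these peaks have a further gene beside them. A further gene that met the rule would itself be one of the 68, so the genes counted here leave out such falls. In all, 30 genes outside the 68 shared a peak with 28 of the 68, and 25 of the 30 could be tested. By limma 3 were called higher, 2 lower and 20 were not called. The calls are 12% higher and 8.0% lower of the 25, against 20.8% higher and 6.88% lower among the 3312 other tested genes with a peak, which leave out the 68 as well. ERF104 (AT5G61600), an ethylene response factor beside ERF107, had 12.3, 13.1 and 15.6 FPKM in the induced line, against 23.0, 23.6 and 22.7 FPKM in brc1-2 (log2 change -0.72, SE 0.10, limma adjusted p = 0.00621). This call held without any 1 library. AT5G61530, beside STP3, was lower (-0.43, limma adjusted p = 0.0312).

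The 3 called higher were AT5G08240 beside AT5G08250 (0.65, limma adjusted p = 0.045), BGAL10 beside MUM2 (0.32, limma adjusted p = 0.0351) and AT5G58005 beside LRL3 (0.27, limma adjusted p = 0.0376). None of them lay nearer to the shared peak than the gene of the 68. AT5G58005 lost its call without any 1 of the 6 libraries, and AT5G08240 and BGAL10 kept theirs only without brc1-2 library 3. Without brc1-2 library 2, 1 neighbour other than these 3 was called higher. AT5G61530 lost its call without any 1 induced library or brc1-2 library 2. Genes that share a peak with one of the 68 were near no change in several cases. Examples are PEP beside PER44 (0.03), CMT2 beside NLM1 (0.03) and LSM6B beside UGT74F2 (0.07), with limma adjusted p-values of 0.801, 0.913 and 0.75.

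**Figure D5:**
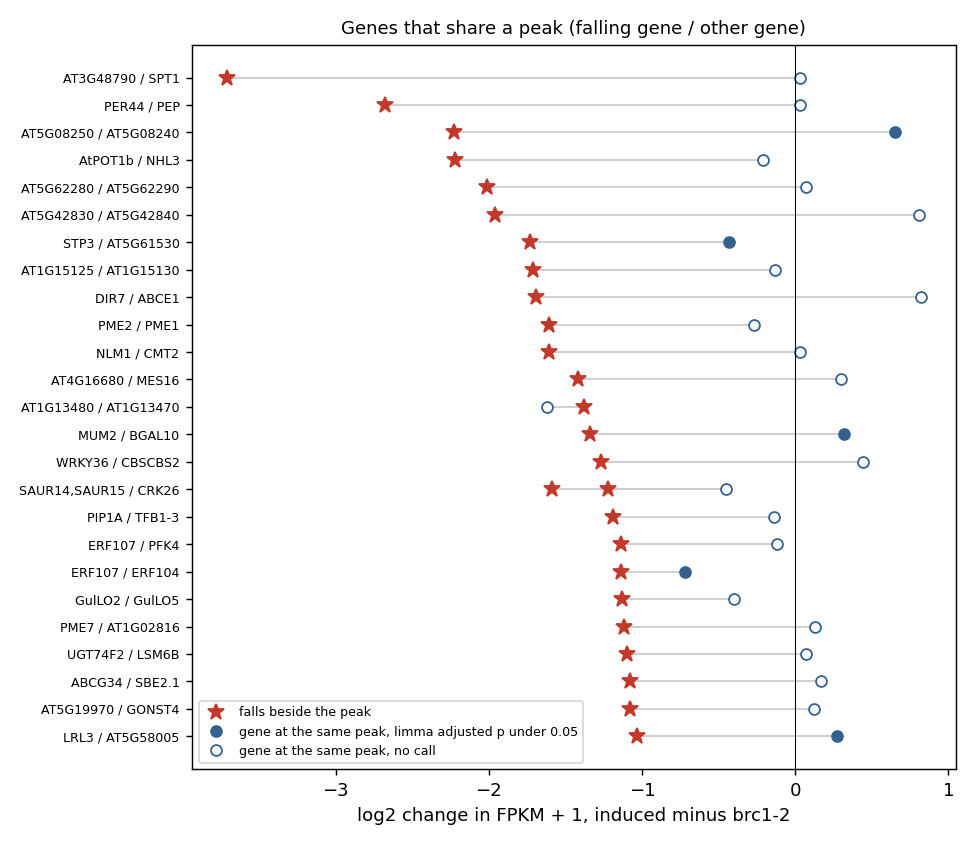
Log2 change in FPKM + 1 (x axis, induced line minus brc1-2) of each gene that is lower beside a peak (star) and of another tested gene at the same peak (circle, filled where the limma adjusted p is under 0.05), joined by a line, with the gene pair named on the y axis. Of the 25 other genes, 3 filled circles lie right of 0 and 2 left of it.

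Position also joined a few of the 68 to each other. AT2G44370 and AT2G44380 lie 339 bp apart on chromosome 2 and share a peak at 18323039 to 18323272. AT2G44370 had 15.3, 12.1 and 18.0 FPKM in the induced line, against 27.3, 36.4 and 32.2 FPKM in brc1-2 (-1.04), and AT2G44380 had 4.1, 4.26 and 6.31 FPKM in the induced line, against 14.8, 16.2 and 18.7 FPKM in brc1-2 (-1.59). AT1G51790 and AT1G51850 are 41429 bp apart and STP3 and ERF107 23164 bp apart, each with its own peak. The loci of CLC-B, TZF9, AtPOT1b and AT4G16680 overlap another annotated gene, with 362, 115, 159 and 362 bp in common, and reads there may belong to either gene.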

How the data were processed

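The analysis covers RNA-seq of the induced line and of brc1-2, with 3 libraries each, and 1 ChIP-seq peak list of the induced line. Per the file headers, the deposited RNA tables hold FPKM with confidence bounds in the Cufflinks layout, per assembled piece on transcript contigs. The submitters' processing notes name TAIR10, Bowtie, TopHat, Cuffdiff, Bowtie2 and MACS2 without roles. The deposited peak positions carry no score; libraries without a processed file were not analysed here. Coordinates are those of the files, taken as TAIR10.

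FPKM of all pieces of a gene was summed, with 0 filled in for a gene without an assembled piece. Fragment numbers were derived from the width of the bounds and cover counting error only. Genes with at least 1 FPKM in 3 of 6 libraries were fitted as log2(FPKM + 1), which understates changes of low genes, with limma 3.58.1 in R 4.3.3 (lmFit, eBayes with trend), Benjamini-Hochberg adjusted over 21038 genes at 0.05. P-values measure the spread between these libraries. The scripts were tested on simulated data. Python 3.11.15, numpy 2.4.6, pandas 2.3.3 and scipy 1.17.1 were used. Names came from RefSeq TAIR10.1, which matched all 68 genes. Promoter motifs were not searched.

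The genes, lists and tests were chosen with earlier results of these data known. Named are BRC1, the 15 largest falls, the 8 highest means, the genes nearest the limit, members of lists, genes with inside or several peaks, called neighbours and up to 4 further genes per list. NRAMP1, IRT1, CPC, the markers, uncalled neighbours and other remaining genes were named after their values were seen, as were the name patterns of the aquaporin, SAUR, peroxidase and ERF families. From these, 4 loci that carry a family name but belong elsewhere were left out.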

Additional observations from a re-analysis of the deposited data

How the results depend on the processing

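With 68 genes as the count under the rule, other settings gave 37 with a pseudocount of 5, 40 with a flank of 500 bp, 135 with a flank of 3000 bp, 8 with the locus not extended and 26 with peaks of at least the median width. Fits that each left out one library gave 66 to 86 genes. In the other settings, the count lay between 54 (nearest locus only) and 89 (fall and separation read in derived fragments scaled to the library total). Genes also 2-fold lower in derived fragments scaled to the library total (64) and genes in 1 piece (62) were counted after seeing the data.

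Leaving out one library, genes called lower ranged from 893 to 1473 (1863 with all) and genes called higher from 716 to 1354 (1550 with all). Induced libraries 1, 2 and 3 and brc1-2 library 2 each moved these counts by over 1.5 times, with 893, 929, 1155 and 1151 lower and 716, 809, 851 and 983 higher. List genes outside the 68 called lower ranged from 79 to 97 (127 with all), with 81 without induced library 1 and 79 without induced library 2. Those called higher ranged from 18 to 29 (29 with all), with 18 without induced library 2. Fewer samples are part of each such fit. Neighbours called higher (3) were 1 with the replicate block, 5 by voom on derived fragments, and 0 to 2 when one library was left out. By voom on derived fragments 19 receptor-like kinases and 12 UDP-glycosyltransferases were lower (12 and 6 by limma). Root hair genes called lower were 10 with at least 5 FPKM in 3 libraries, and aquaporins called higher were 5 with the replicate block. The cause was not tested.

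Among 952 values of the 68 genes under the alternatives, 905 moved by less than the spread between libraries, 45 moved more and 2 changed sign. Some of the 905 could not move. Without the filter on low values, with the filter of 5 FPKM and with the replicate block, the changes equal the main ones by construction. A gene with a wide spread, such as AtPOT1b (SD 3.68 of the log2 values in brc1-2), could hardly count as moved. In derived fragments scaled to the library total AT3G48790 was 0.38 and AT4G16680 0.52, since their fragments do not fall with FPKM. BRC1 kept its direction and call, with 9.01 to 11.2.

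Libraries with the same number deviated from their group means with correlations of 0.082, 0.06 and 0.193, and induced library 1 correlated best with brc1-2 library 2 (0.145), so the numbers were not taken as pairs. With the replicate block 1667 genes were lower and 1322 higher. Genes with few fragments, narrow peaks without scores and missing strand limit what is said of single genes. The motif search was not run.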

Other observations

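Beyond the 68 genes, a further 228 tested genes with a peak were called lower. Type-A response regulators, which dampen cytokinin signalling, hold 4 of them. Of 9 tested, 5 were called lower and 0 higher, and 4 of the 5 have a peak. Of the 9, 6 have a peak, and ARR9 and ARR16 among these were not called. Over all tested genes 8.86% were called lower, and over tested genes with a peak outside the 68 it was 6.88%. ARR4 had 47.5, 44.9 and 56.9 FPKM in the induced line, against 89.8, 72.5 and 79.2 FPKM in brc1-2 (log2 change -0.69, limma adjusted p = 0.0154). ARR5 (-0.79), ARR7 (-0.64) and ARR8 (-0.34) had limma adjusted p-values of 0.0332, 0.0304 and 0.0344. Each of these 4 lost its call without induced library 1 and without induced library 2. ARR4 kept it without any other 1 library. ARR5 and ARR8 kept theirs only without brc1-2 library 3, and ARR7 only without induced library 3 or brc1-2 library 3. The groups did not overlap in ARR4, ARR5, ARR7 or ARR8, which also held, with the induced line lower, for 18.1% of all tested genes.

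Auxin carriers and early response genes showed the same sign more often than the opposite one. Of 18 tested, 8 were called lower and 0 higher, beside 8.86% lower over all tested genes, and 4 of the 8 have a peak. Of the 18, 6 have a peak. IAA1, an auxin-induced repressor of auxin response, had 8.46, 9.26 and 8.4 FPKM in the induced line, against 16.7, 12.6 and 15.3 FPKM in brc1-2 (-0.7, limma adjusted p = 0.0117), a call lost without induced library 1. IAA2 (-0.73), IAA19 (-0.65) and the auxin importer LAX3 (-0.57) also have a peak, with limma adjusted p-values of 0.0243, 0.0241 and 0.0297. Each lost its call without induced library 1 or 2, and IAA2 also without brc1-2 library 2. LAX3 kept its call only without brc1-2 library 3, and IAA19 only without brc1-2 library 1 or 2. Without a peak, the auxin exporter PIN7 was lower (-0.86, limma adjusted p = 0.00203) and kept its call without any 1 library. These lists were picked for description after their values were seen.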
